A study of Mus musculus with 8 samples.

Results

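E2f3 binding sites in intestinal crypt cells of Rb-deficient mice were set against those in crypt cells of control mice. All sites in the 2 deposited lists made with the anti-E2f3 antibody were taken, 27396 from Rb-deficient and 32666 from control crypts. Together these were 60062 of the 284230 sites in the 8 libraries of the series. A site counted as shared if the other list had a site no more than 250 bp away, over the whole lists and again over lists of equal length ranked by the deposited score.

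The assay was ChIP-exo-seq: protein-bound DNA is pulled down with an antibody and digested by an exonuclease up to the edge of the bound protein. Both groups were on a background mixed from C57BL/6, 129 and FVB/N. The Rb-deficient group carried an intestinal, inducible Cre (Ah-cre) that deleted Rb, and the control group was labelled wild type. Whether the wild-type animals carried the Cre or received its inducer is not given in the sources used here, and neither are age, sex or the number of animals. The same antibody lot against E2f3 served both groups, 1 library each, named as merged data without a statement of what was merged. With 1 library on each side, differences carry no replicate check and no p-value, and bracketed ranges are exact 95% Clopper-Pearson intervals that cover counting error only. More dividing cells in a crypt sample and more binding per cell cannot be told apart, and site lists do not show whether Rb1 was deleted or which cells were sampled.

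E2f3 belongs to the E2F family of transcription factors, which bind promoters of genes for DNA synthesis and cell division together with a DP partner. Rb, the product of Rb1, holds activating E2Fs in check until cyclin-dependent kinases phosphorylate it. The related pocket proteins p107 and p130 work with repressor E2Fs and with the MuvB proteins, which also bind promoters of mitotic genes. Crypts hold the stem and progenitor cells of the intestine, which divide throughout life.

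Sequences around the highest-scored promoter site of selected genes are given to show what a site looked like in each class. Each is 29 bases of the mm9 reference, plus strand, centred on the site. Capitals mark the match to the E2F motif nearest to the site, which was taken as TTCCCGC, as its variant TTGGCGC, as the further variant TTCGCGC, or as the remaining variant TTGCCGC, on either strand. Where the 29 bases hold no such match, capitals mark the 5-base core, the last 5 letters of those words, so that each motif also holds a core. The first 4 had their best site at the same base in both libraries.
E2f3: gaaactcagatTTCCCGCcggcttttcaa
Cdk1: ctgggagcgcagaGCGCGAAagggagcgg
Bard1: aaacttcctgaGCGGGAAactgagcggcg
Mxd3: ccccgactcggGCGGGAAaagctgccggt
The next 8 had a promoter site in Rb-deficient crypt only.
Zfp367: cgttacatTTCGCGCctgggcggaaccag
Tra2b: gccacagcgtgGCGGGAAagtgtgcgcct
Rb1: cgagggcgcggGCGGGAAgccgcggggaa
Dyrk1a: aaccctttcgcTTCCCGCccgaataataa
E2f7: caatccggcggGCGGGcgaaggggaggaa
Cenpe: ttaaacttaaagGCGGGgcggcccgggag
Bub1b: aaatttgaaacttgGCGGCccgtgcgtga
Anapc7: ccagcccttgcGCGCCtgattcgaaaatt
The last 4 had one in control crypt only.
Fuca1: agactagaatcaggctacatcggtgtctc
Zmat1: gggcaaaaagcGCGGGatgtaaaaacaaa
Il1rl1: tcatggattttggctaaaactaaaattct
Sh3gl3: ccaaaccgctccggcagactggctaagaa

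The windows of the first group lay at chr13:30077926-30077954 for E2f3, chr10:68815771-68815799 for Cdk1, chr1:71149737-71149765 for Bard1 and chr13:55431468-55431496 for Mxd3, all between genes and upstream of the start. Those of the second group lay at chr13:64254512-64254540 for Zfp367, chr16:22266180-22266208 for Tra2b, chr14:73725737-73725765 for Rb1, chr16:94791331-94791359 for Dyrk1a and chr10:110182360-110182388 for E2f7, again between genes. Cenpe (chr3:134875542-134875570) and Bub1b (chr2:118423984-118424012) had theirs in a 5′ UTR, and Anapc7 (chr5:122872192-122872220) in an intron of another transcript. Control-only windows lay in introns at Fuca1 (chr4:135477277-135477305) and Zmat1 (chrX:131543975-131544003), in a 5′ UTR at Il1rl1 (chr1:40496521-40496549) and between genes at Sh3gl3 (chr7:89319228-89319256). The 4 mitotic or cell cycle genes E2f7, Cenpe, Bub1b and Anapc7 held only the core in the bases shown, as did Zmat1, and Fuca1, Il1rl1 and Sh3gl3 held neither. Within 50 bp of the site, E2f7 and Fuca1 did have a full match outside the bases shown.

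Most sites were common to both genotypes. Of the Rb-deficient sites, 19033 or 69.5% (68.9% to 70.0%) had a control site within 250 bp, and of the control sites 19013 or 58.2% (57.7% to 58.7%) had an Rb-deficient site. Cutting the control list to the same 27396 sites, which removed 5270 sites scored 4.18 or lower, gave 65.4% and 65.1%. Only 0.604% of the reference lay within 250 bp of a control site and 0.503% within 250 bp of an Rb-deficient site. Shared sites were close together, at a median distance of 10 bp, with 95.7% of shared Rb-deficient sites within 50 bp and 2657 pairs at the same base. At the edge of the 250 bp limit few sites were involved: 46 Rb-deficient sites lay in the last 50 bp inside it (median score 3.79) and 45 in the first 50 bp outside it (4.67), against 31 (6.82) and 27 (4.25) control sites.

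Sharing followed the score, and promoters went against other positions. A promoter site here is a site within 1 kb of any start of a protein-coding gene. In the highest score decile of the Rb-deficient list 94.0% of sites were shared, and in the lowest decile 33.4%. The control list fell from 98.6% to 21.3%. Within the Rb-deficient list, promoter sites were less often shared than the other sites in each of the 10 score classes, with 89.4% against 96.0% in the highest, 72.3% against 96.2% in the second and 23.5% against 36.6% in the lowest. Within the control list, promoter sites were more often shared than the others in all classes but the highest (98.3% against 98.6%), with 52.6% against 17.4% in the lowest. Promoters listed in control crypt were thus largely listed in Rb-deficient crypt too, while the Rb-deficient list held many promoters that the control list lacked.

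**Figure D1:**
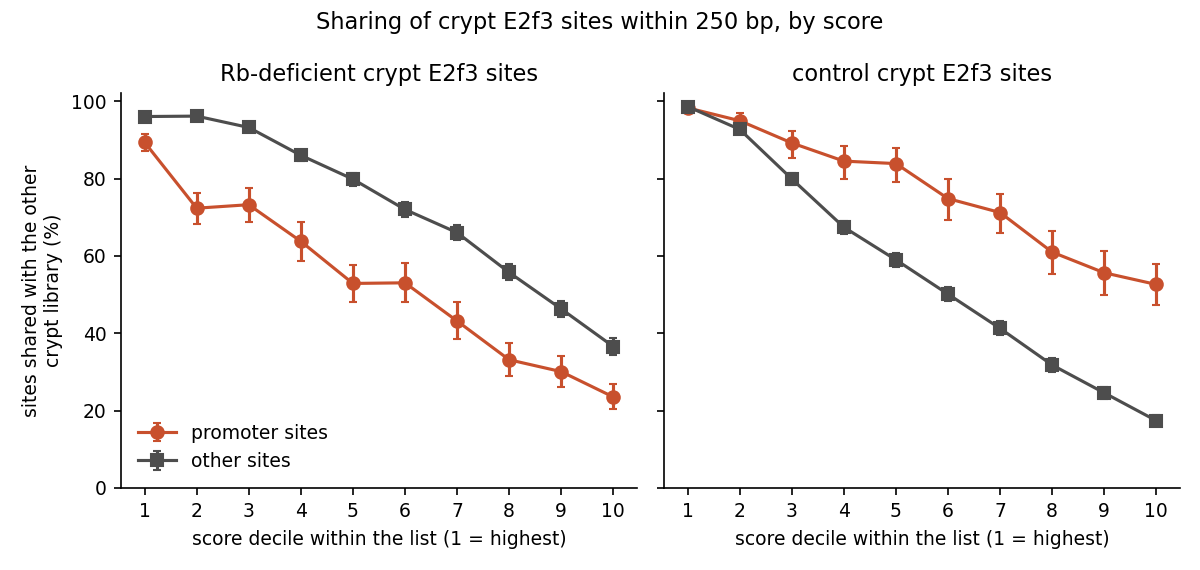
Share of crypt E2f3 sites with a site of the other crypt library within 250 bp (%), by score decile within each list (1 is the highest), for promoter sites (circles) and other sites (squares), with exact 95% binomial intervals. Promoter sites lie below other sites in the Rb-deficient list (89.4% and 96.0% in decile 1) and above them from decile 2 downward in the control list (52.6% and 17.4% in decile 10).

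Sites found in Rb-deficient crypt only were richer in promoters than shared sites, and control-only sites were poorer. Promoter sites made up 2300 of 8363 Rb-deficient-only sites, 27.5% (26.5% to 28.5%), 14.3% (13.8% to 14.8%) of shared sites and 745 of 13653 control-only sites, 5.46% (5.08% to 5.85%). These promoter sites also lay closer to the start, at a median of 121 bp in the Rb-deficient-only class, 150 bp in the shared and 309 bp in the control-only class. Among the 500 highest-scored sites of each list the difference was seen again, with 57.8% of Rb-deficient and 36.8% of control sites at promoters. Among the 100 highest-scored it was not, with 56% and 58%. Of the sites at the highest score, 999, 74 of 125 Rb-deficient and 40 of 70 control sites lay at promoters. Scores of unshared sites were low on each side, with medians of 5.47 for Rb-deficient-only and 6.19 for control-only sites against 13.6 and 16.94 for shared sites in the Rb-deficient and control list. The score is used to rank sites within a list, because neither its meaning nor a common scale between lists is stated.

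The E2F motif was found at promoter sites of all 3 classes above its share at start sites in general. Within 50 bp it lay at 42.6% (40.7% to 44.5%) of shared, 21.0% (19.3% to 22.7%) of Rb-deficient-only and 23.4% (20.4% to 26.6%) of control-only promoter sites. Windows of the same length around all 45974 start sites held it in 4.81%, and windows 2 kb away from the promoter sites in 0.826% to 0.940%. The intervals of the 2 unshared classes overlap, and their order was not the same at each minimum score. With sites scored 20 or more in both lists, the shares were 40.3% for Rb-deficient-only and 25.4% for control-only promoter sites. Of the promoter sites with a motif, 80.7% of shared, 62.0% of Rb-deficient-only and 81.6% of control-only ones lay exactly at its centre. Whether event calling placed sites on motifs, and so raised the number of sites at the same base in both libraries, was not tested.

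The 5-base core showed a different order. It lay within 50 bp of 86.1% of shared and 91.9% of Rb-deficient-only promoter sites, 61.2% of control-only ones and 56.3% of all start sites. Base composition moved with it, and its part in these shares was not tested: the median GC content of the windows was 62.4%, 66.3% and 56.4% in the same order, and 59.4% at all start sites. CpG dinucleotides numbered 7.97, 9.27 and 5.98 per window on average, and 6.27 at all start sites. The element CCAAT, bound by NF-Y, lay at 18.5% of Rb-deficient-only, 16.7% of shared and 10.9% of control-only promoter sites, and at 11.6% of start sites. In the windows 2 kb away it lay at 13.0%, 13.0% and 12.2%. The CHR element (TTTGAA or TTCGAA), which the MuvB protein Lin54 reads, lay at 6.91%, 7.86% and 4.16%, with 4.52% at start sites. In the windows 2 kb away it was more frequent than at the sites in each class, at 9.41%, 9.45% and 8.59%. A word match is a description of these windows and not evidence of a bound factor.

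**Figure D2:**
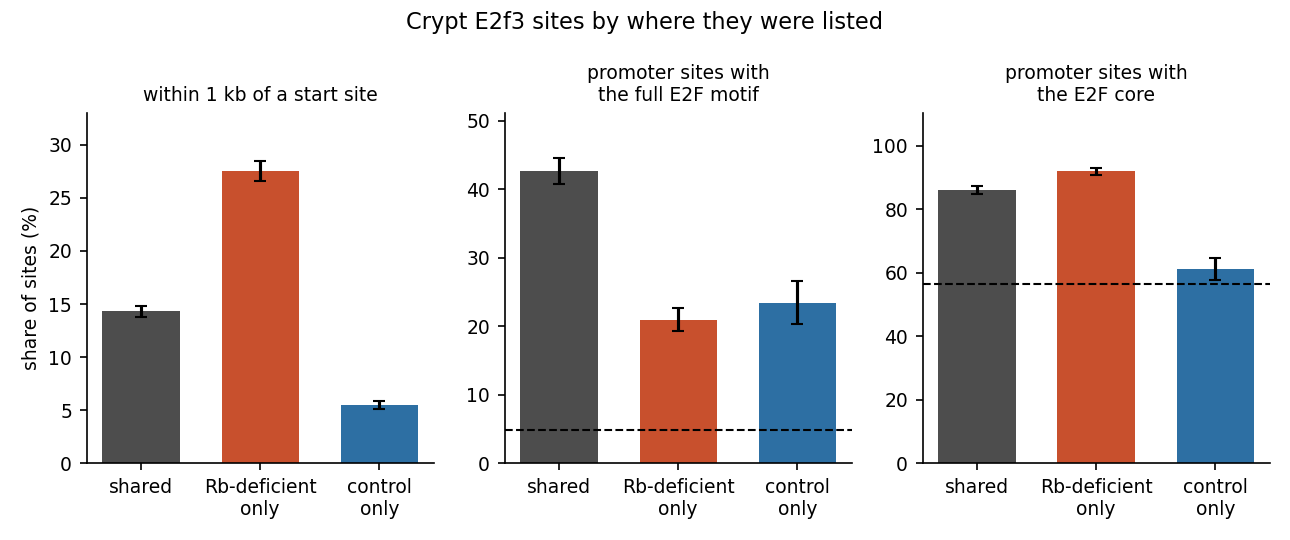
Shares of crypt E2f3 sites (%) that were shared, in Rb-deficient crypt only or in control crypt only, with exact 95% binomial intervals. The panels show the share within 1 kb of a start site, and among promoter sites the share with the full E2F motif and with its core within 50 bp. Dashed lines give the share of all start-site windows (4.81% and 56.3%). Promoter share is highest in the Rb-deficient-only class (27.5%) and the full motif is most frequent among shared promoter sites (42.6%).

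At promoters of similar score, sites with the full motif were shared more often than sites without it. For Rb-deficient promoter sites scored 2 to 5, 45.3% (39.2% to 51.5%) with the motif and 21.9% (19.4% to 24.5%) without it were shared. Between 20 and 50 the shares were 78.4% and 70.9%, whose intervals overlap. Control promoter sites scored 2 to 5 were shared in 63.3% with and 50% without the motif.

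Sites away from promoters overlapped heavily with the Myc libraries of the same tissue. Of shared sites outside promoters, 94.2% had a Myc site of either crypt genotype within 250 bp, against 26.5% of shared promoter sites. The control crypt Myc list alone, with 159181 sites, lay near 89.7% of control-only sites outside promoters and 41.5% of control-only promoter sites. It lay near 11.2% of Rb-deficient-only promoter sites and 77.8% of Rb-deficient-only sites elsewhere. The Rb-deficient crypt Myc list, with 31397 sites, lay near 37.0% of control-only and 37.4% of Rb-deficient-only sites outside promoters. At promoters it lay near 18.3% and 9.74%. The share of the reference near the Myc sites of each list was not computed. The E2F motif was rare outside promoters, at 3.76% of shared, 4.66% of Rb-deficient-only and 1.66% of control-only sites, with 0.479% to 0.550% in their flanks. What these common positions hold was not tested, and no input library was used here.

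Over all 22232 protein-coding genes, 20.2% had a promoter site in Rb-deficient and 14.6% in control crypt. Genes with one in Rb-deficient crypt only made up 8.23%, those in control crypt only 2.6% and those in both 12%. Of the 5070 genes with a promoter site in either library, 36.1% were Rb-deficient only, 11.4% control only and 52.5% both. With lists of equal length, 20.2% of all genes had a promoter site in Rb-deficient and 12.5% in control crypt, 9.45% in the first only, 1.77% in the second only and 10.8% in both. Of the 4886 genes bound in either, these were 43%, 8.04% and 48.9%. Equal length left the Rb-deficient list whole and removed control sites only. The cut could therefore not lower the Rb-deficient-only count or raise the control-only count, and the change is no separate check. Most of the 1830 Rb-deficient-only genes had low scores, with a median of 6.56, and 343 of them had a control site within 5 kb of a start. Genes bound in both had a median of 20.5 in Rb-deficient and 16.58 in control crypt, and 1390 of these 2663 had their best site at the same base.

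At E2f3's own gene the site lay 403 bp upstream of the start, at the same base in both libraries and at the upper limit of the score, 999, in both. Myc, the proliferation regulator mapped in the other libraries of the series, had its site at the same base with scores of 127.61 in Rb-deficient and 121.39 in control crypt. At Rb1 the libraries differed. Rb-deficient crypt had 2 promoter sites, 122 bp (score 44.2) and 455 bp (39.48) upstream of the start, each with the E2F motif within 50 bp. It also had an intron site scored 8.14. Control crypt had 3 intron sites, scored 7.38, 3.84 and 3.31, and its site nearest to the Rb1 start lay outside the gene, 39008 bp from that start. The promoter was not without E2f3 elsewhere in control mice, since control villus listed a site there with a score of 3.47 and Rb-deficient villus one with 5.64.

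Regulators at the top of the pathway were mostly bound in both libraries, with the differences on the Rb-deficient side. Of 10 E2F and DP genes, 9 had a promoter site in the Rb-deficient and 7 in the control library. E2f2, an activator like E2f3, scored 187.56 and 206.15, the Rb-deficient value first here and below. E2f7, a repressor E2F that acts without DP, scored 27.38 in Rb-deficient crypt only, and the DP gene Tfdp2 scored 3.54. Of the 10 genes for pocket proteins, the MuvB core, Mybl2 and Foxm1, 9 and 5 had a site. Rbl1, which encodes p107, scored 244.03 and 255.27, and Lin52, a MuvB subunit, 217.15 and 176.28 at the same base. The MuvB genes Lin54 (27.95), Lin9 (27.16) and Lin37 (5.91) had a site in Rb-deficient crypt only, as did Rb1.

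Of 18 G1/S cyclins, kinases and inhibitors, 11 and 5 had a site, and 6 were in Rb-deficient crypt only. Among these were Ccna2 (39.02), the S-phase cyclin, Skp2 (25.9), which targets a Cdk inhibitor for destruction, and the inhibitor genes Cdkn2a (40.79) and Cdkn1a (19.99). Cdkn2c, another Cdk inhibitor gene, scored 138.43 and 62.91 at the same base, and the phosphatase gene Cdc25a 78.59 and 54.7. Joined, the 3 regulator lists had 12 of 29 bound genes in Rb-deficient crypt only, 41.4%, beside 36.1% of all bound genes, and 0 in control crypt only.

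Genes of DNA synthesis were mostly bound in both libraries. The 5 lists, with 95 genes, were licensing, firing, polymerases, nucleotide synthesis, and histone chaperones with replication-coupled chromatin. The last of these also holds histone methyltransferase genes. Of the 95 genes, 82 had a site in the Rb-deficient and 72 in the control library. Of the 85 bound in either, 15.3% were Rb-deficient only and 3.53% control only, beside 36.1% and 11.4% of all bound genes. For 39 of the 69 genes bound in both, the best site was at the same base, near the 52.2% of all 2663 genes bound in both. Among the 63 genes of chromosome segregation and cell division bound in both, the count was 23.

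Gins2 and Gins1, subunits of the GINS complex of the replicative helicase, scored 277.26 and 262.85, and 193.62 and 236.41. The helicase genes Mcm3 and Mcm4, the primase gene Prim1, the thymidylate synthase gene Tyms and the chromatin genes Nasp and Atad2 were at 999 in both. Atad5, which unloads the sliding clamp, scored 216.67 and 206.84. Rrm1, the large subunit of ribonucleotide reductase, was at 999 in Rb-deficient crypt and 224.43 in control crypt, with best sites 534 bp apart. These genes were named as the best of their lists in both libraries, so their high rank in each genotype follows from that choice.

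A smaller set of synthesis genes had a site in Rb-deficient crypt only. Licensing genes were Orc1 (27.72), a subunit of the origin recognition complex, Mcm2 (20.95) and Mcm8 (16.98). Clspn (41.26), the checkpoint mediator Claspin, was the only firing and fork gene of this class, and Pold2 (25.26) and Pole (12.74) were the only polymerase genes. Nucleotide synthesis had Shmt1 (42.08), Dut (32.99) and Dck (16.94). The histone chaperone and chromatin list had Suz12 (29.97), Supt16h (15.84) and Suv39h1 (7.24) among its 4. Control-only sites were at Orc5 (11.78), Rrm2b (3.56), which encodes the p53-inducible reductase subunit, and Eed (14.11), a partner of Suz12 in a histone methyltransferase complex.

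Genes of chromosome segregation and cell division were more often bound in Rb-deficient crypt only than those of DNA synthesis. Over 7 lists with 119 genes, 99 had a site in Rb-deficient and 64 in control crypt, with 36 in Rb-deficient crypt only and 1 in control crypt only. Of the 100 bound in either, 36% were Rb-deficient only, close to the 36.1% of all bound genes, and 1% control only, beside 11.4%. The share of Rb-deficient-only genes was thus at the background, and it was the synthesis genes that fell below it. These Rb-deficient-only genes had a median score of 26.7, against 6.56 for all Rb-deficient-only genes. Of the 36, 29 had no control site within 5 kb of a start, near the share over all genes of this class, 1487 of 1830.

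**Figure D3:**
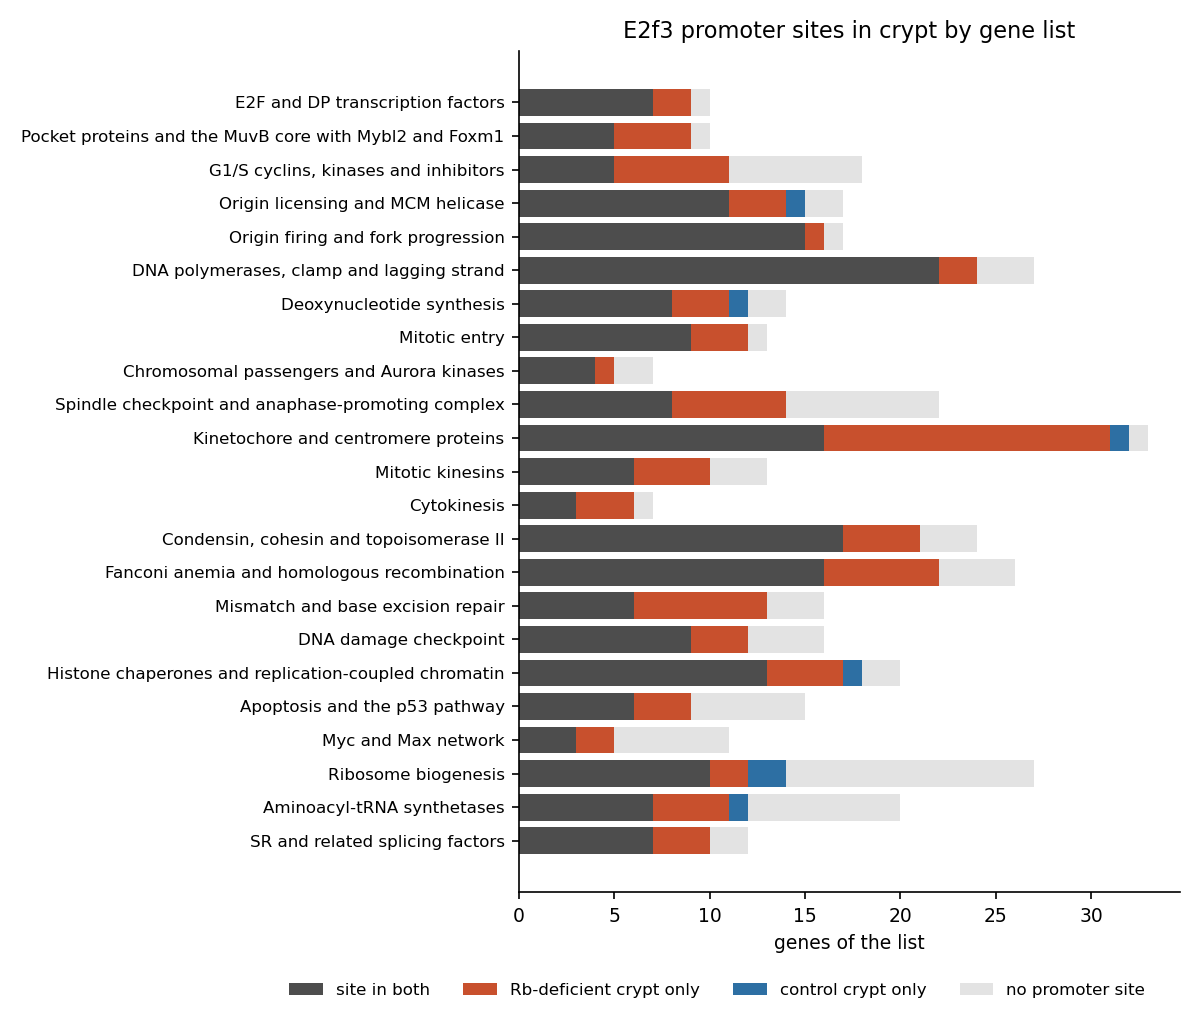
Number of genes in each of 23 gene lists with an E2f3 promoter site in both crypt libraries, in Rb-deficient crypt only, in control crypt only or in neither. Kinetochore and centromere genes, the longest list, hold 15 Rb-deficient-only members of 33, and origin firing genes 1 of 17. Over all genes, 8.23% were Rb-deficient only, or 36.1% of those bound in either library.

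The kinetochore joins chromosomes to the spindle, and its list, the longest of all, had the most such genes. Of 33 kinetochore and centromere genes, 31 had a site in Rb-deficient and 17 in control crypt. In Rb-deficient crypt only there were 15, with 16 in both and 1 in control crypt only, where 36.1% of all bound genes were Rb-deficient only. Cenpb, which binds centromeric DNA, scored 109.63 there and Cenpe, a kinetochore motor, 97.75. Fam33a, also known as Ska2, scored 57.24 and Cenpm 47.7. Cenpc1, which bridges centromeric chromatin and the kinetochore, was bound at the same base in both with 211.01 and 222.48, and Nuf2, of the microtubule-binding complex, with 999 and 158.45. Ndc80, the partner of Nuf2, was the control-only member, with a score of 5.27; it is named here after its value was seen.

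The spindle checkpoint holds anaphase until chromosomes are attached, and the anaphase-promoting complex then marks cyclins for destruction. Of 22 such genes 14 and 8 had a site, where 20.2% and 14.6% of all genes did. In Rb-deficient crypt only there were 6, beside 36.1% of all bound genes. They included Anapc7 (112.02) and Cdc26 (21.69), subunits of the complex, and the checkpoint kinase genes Bub1b (69.37) and Ttk (23.5). Anapc5 scored 195.1 and 174.48 at the same base, and Bub1 was at 999 and 110.39, with sites 1 bp apart.

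Genes that drive entry into mitosis had 12 and 9 of 13 members bound, where 20.2% and 14.6% of all genes were. Of all bound genes, 36.1% were Rb-deficient only. Cdk1, the mitotic kinase, was at 999 and 256.44 at the same base, and Cdca3 at 999 and 192.13. Ccnb1, its cyclin partner, scored 6.98 in Rb-deficient crypt only, as did Cks2 (5.43) and 6720463M24Rik (20.72), the gene of Bora, which activates Plk1. The chromosomal passenger and Aurora kinase list had 5 and 4 of 7 genes bound, with Aurkb at 999 in both, Incenp at 999 and 227.51, and Tpx2 (20.54), an activator of Aurora A, in Rb-deficient crypt only.

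For the lists that follow, the shares over all genes were 20.2% and 14.6% bound, with 36.1% of all bound genes Rb-deficient only. Mitotic kinesins had 10 and 6 of 13 genes bound. Kif20a (88.63), needed for cytokinesis, Kif4 (61.58), Kif20b (23.8) and Kifc1, at the lowest score deposited (2), were in Rb-deficient crypt only. Kif2c scored 256.93 and 60.99, and Kif15 191.87 and 85.07. Cytokinesis genes had 6 and 3 of 7, with Racgap1 (75.23), Cit (32.37) and Cep55 (14.78) in Rb-deficient crypt only and Iqgap3 (999 and 265.88) and Ect2 (92.79 and 29.68) in both. Some of these had a control site not far off: it lay 1522 bp from the start at Racgap1, 1336 bp at Cep55 and 1615 bp at Kif20a, just outside the 1 kb window. Condensin, cohesin and topoisomerase II genes had 21 and 17 of 24, with the condensin genes Ncaph (64.54), Smc2 (40.03) and Ncaph2 (32.04) and the cohesin gene Stag1 (16.16) in Rb-deficient crypt only, and Ncapg2 and Pds5b at 999 in both.

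Genes bound in both libraries also ranked differently by group. A gene's rank was the share of its library's list with a higher score than its best promoter site. Of the 63 segregation and division genes bound in both, 50 ranked higher in the Rb-deficient list, 10 lower and 3 equal, or 79.4% higher. For all 2663 genes the figure was 60.9%, for the 69 synthesis genes 58.0%, for the 31 repair genes 67.7% and for 27 genes of growth, splicing and translation 33.3%. Median scores of the segregation genes bound in both were 138.23 in Rb-deficient and 39.6 in control crypt, and of the synthesis genes 98.23 and 80.84.

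The full motif also divided these groups. The best Rb-deficient site had it within 50 bp at 52 of 69 synthesis genes bound in both, 75.4%, and at 21 of 63 segregation genes, 33.3%, beside 43.6% of all genes bound in both. Among Rb-deficient-only genes the counts were 8 of 13 for synthesis and 3 of 36 for segregation, beside 21.7% of all 1830 such genes.

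**Figure D4:**
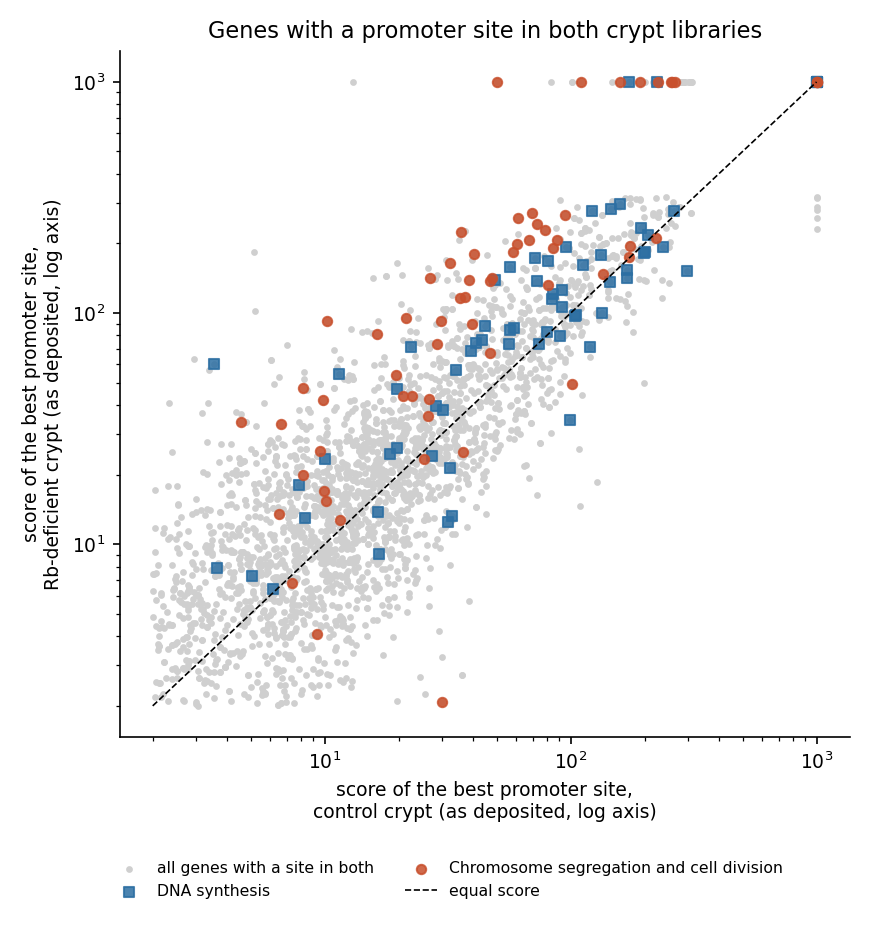
Deposited score of the best promoter site in control crypt (x) and Rb-deficient crypt (y), log axes, for the 2663 genes bound in both, with genes of DNA synthesis (squares) and of chromosome segregation and cell division (circles) marked and the line of equal score dashed. Scores stop at 999, and no scale between libraries is stated. Most circles lie above the line, with medians of 138.23 (y) and 39.6 (x).

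DNA repair and checkpoint genes had a share of Rb-deficient-only members near that of all genes. Over 3 lists with 58 genes, 47 and 31 had a site, and 16 of the 47 bound in either were in Rb-deficient crypt only, 34.0% beside 36.1% of all bound genes, with 0 in control crypt only beside 11.4%. Fancd2 (90.92), the protein monoubiquitinated in the Fanconi anemia pathway, its ubiquitin-conjugating enzyme gene Ube2t (41.85), the helicase gene Blm (32.62) and Rad51c (18.34) were Rb-deficient only. Bard1, the partner of Brca1, was at 999 and 282.22 at the same base.

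Mismatch and base excision repair had 13 and 6 of 16 genes bound, with 7 in Rb-deficient crypt only. Over all genes 20.2% and 14.6% were bound, and 36.1% of those bound in either library were Rb-deficient only. Msh6, a mismatch recognition gene, was bound in both at the same base with 161.38 and 160.84. Ogg1 (14.2), which removes oxidised guanine, Xrcc1 (12.02) and Parp1 (7.43) were Rb-deficient only, and the glycosylase gene Neil3 was at 999 in both. The checkpoint list had 12 and 9 of 16, with the kinase gene Chek2 (54.37), Hus1 (33.98) and Atr (5.58) in Rb-deficient crypt only and H2afx (999 and 262.19) and Chek1 (190.13 and 183.24) in both.

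Apoptosis and p53 genes had 9 and 6 of 15 bound, where 20.2% and 14.6% of all genes were. Rb-deficient-only genes were 3 of the 9 bound in either, beside 36.1% of all bound genes. Bbc3, which encodes Puma, scored 64.74 and 119.49. Apaf1 (2.51), a subunit of the apoptosome, and Mdm2 (2.33), which targets p53 for destruction, were among these, with low scores.

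Of 41 bound genes of growth, splicing and translation, 11 (26.8%) were Rb-deficient only and 3 (7.32%) control only, beside 36.1% and 11.4% of all bound genes. Ribosome biogenesis had 12 and 12 of 27 genes bound, 2 on each side alone: Rrs1 (35.95) and Mybbp1a (6.86) in Rb-deficient crypt, and Ncl (9.58), the nucleolin gene, and Nop10 (7.01) in control crypt. Nolc1 was at 999 in both and Nop58 at 999 and 269.74. Aminoacyl-tRNA synthetases had 11 and 8 of 20, with Yars (60.05), Gars (14.77) and Farsb (11.93) among 4 Rb-deficient-only genes, Hars (4.78) in control crypt only and Vars (269.84 and 309.84) and Lars (18.48 and 19.51) in both. Splicing factors of the SR kind had 10 and 7 of 12, with Tra2b (162.53), Srsf7 (73.56) and Srsf5 (5.3) in Rb-deficient crypt only and Srsf1 and Srsf10 at 999 in both. In the Myc and Max network 5 and 3 of 11 were bound, with Mnt (74.57) and Mycl1 (9.89) in Rb-deficient crypt only and Mxd3 at 999 and 298.73.

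Over 4 lists of intestinal cell identity, 9 of 40 genes had a site in each library, a share not below the 20.2% and 14.6% of all genes. Of 11 stem cell and crypt genes, 3 had a site in Rb-deficient and 4 in control crypt. Axin2, a Wnt target, scored 59.63 and 38.44, Sox9 4.27 and 5.63, Znrf3 (13.07) was Rb-deficient only, and Ephb3 (5.98) and Smoc2 (2.35) were control only. Of 12 intestinal transcription factors 6 and 4 were bound, among them Elf3 (114.78 and 87.21) and Klf5 (16.39 and 6.76), with Klf4 (11.27) and Tcf7l2 (8.11) in Rb-deficient crypt only. Muc2, the goblet cell mucin gene, had a control-only site scored 3.71, and 0 of 7 secretory genes were bound in Rb-deficient crypt. No gene was listed in the remaining sets: the lists for villus enterocytes (10 genes), immune cells (7), stroma and endothelium (7) and other tissues (6) had 0 members bound in either library. A site does not measure expression, so these counts do not check the cell types.

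The highest-scored Rb-deficient-only genes without a control site within 5 kb of a start mixed cell division with other functions. Zfp367, a zinc finger gene, led with 180.55, followed by Tra2b. Dyrk1a (112.2) encodes the kinase that promotes assembly of MuvB with pocket proteins. Anapc7 and Cenpb came next, then Rad51l1 (104.76), a recombination gene, Cdca7l (104.29), Mpdu1 (101.37), a glycosylation gene, and Cenpe. Of the 10 genes with the highest scores in this class, 6 had the full motif within 50 bp, beside 21.7% of all 1830 Rb-deficient-only genes. These genes were picked by score, and the motif share went with the score in the whole Rb-deficient list. It was 47.9% for the 500 highest-scored sites and 9.30% for all sites.

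Control-only genes were chosen in the same way from the control list. Fuca1, which encodes a lysosomal fucosidase, led with 66.1 at 641 bp downstream of a start, followed by Zmat1 (51.37), 1110049F12Rik (50.02), Il1rl1 (44.78), the receptor for interleukin-33, and Rbm4b (36.33). The next were Sh3gl3 (32.76), Ttc6 (32.04), Mgat3 (30.42), a glycosyltransferase gene, Hist4h4 (28.49), which encodes histone H4, and Amotl2 (27.9). Of these 10, Fuca1 and Hist4h4 had the full motif within 50 bp, beside 23.4% of all control-only promoter sites.

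Some sites at the score limit had no partner. The limit was reached by 125 Rb-deficient sites, of which 109 were shared, and by 70 control sites, of which 68 were shared. Below the limit the highest scores were 320.05 and 312.2. Of the 16 unshared Rb-deficient sites, 4 lay between positions 39980822 and 39985175 on chromosome 17, 3 between 3030234 and 3038179 on chromosome 9 (the first 103 bp from a start of Gm10716) and 2 at 181652186 and 181652543 on chromosome 2. In these clusters a control site lay 268 to 1665 bp away. The site at Esco2, which acetylates cohesin, lay at 66452905 on chromosome 14, 74 bp upstream of its start, and the nearest control site was 719 bp away. Esco2 is named after its value was seen. It counted as bound in both, since its best control site (50.39) lay 690 bp downstream of the start.

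Promoter sites of Rb-deficient crypt only were found again in Rb-deficient villus more often than in control villus. Villus cells are the differentiated cells above the crypt. Of 2300 such sites, 31.0% (29.1% to 32.9%) had an E2f3 site within 250 bp in Rb-deficient villus and 4.35% (3.55% to 5.26%) in control villus. With both villus lists at 7405 sites the shares were 15.0% (13.5% to 16.5%) and 4.35%. Shared promoter sites had 65.4% and 32.3%, or 43.8% and 32.3% at equal length. Control-only promoter sites had 15.7% and 6.17%, and at equal length 4.83% (3.41% to 6.63%) and 6.17% (4.56% to 8.15%), whose intervals overlap. Away from promoters, Rb-deficient-only sites at equal length had 4.37% (3.87% to 4.92%) in Rb-deficient and 4.60% (4.09% to 5.16%) in control villus, whose intervals overlap.

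**Figure D5:**
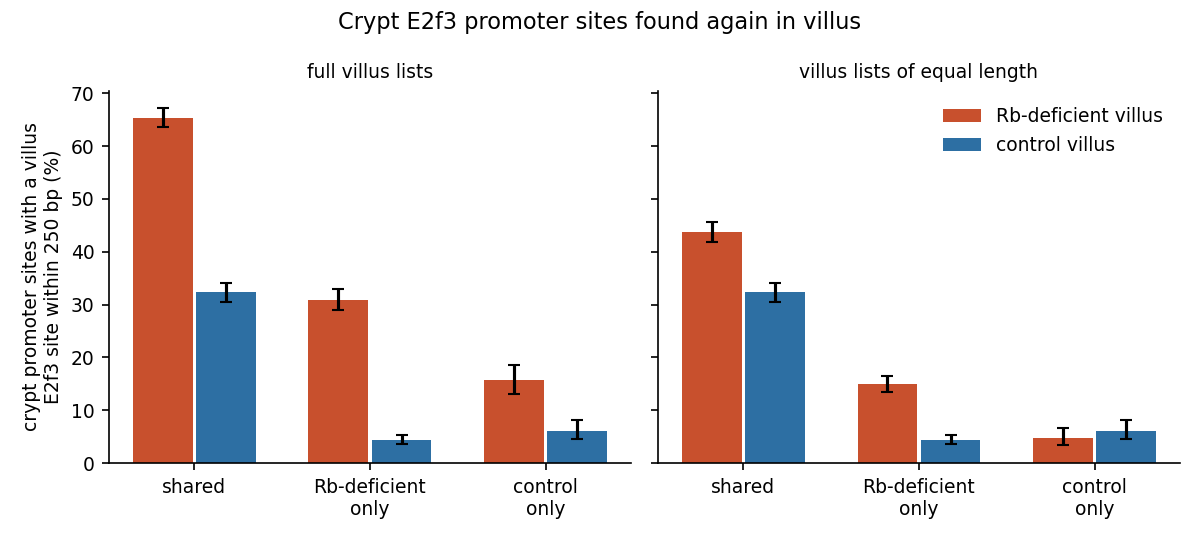
Share of crypt E2f3 promoter sites (%) with an E2f3 site within 250 bp in Rb-deficient villus or control villus, by crypt class, with exact 95% binomial intervals, for full villus lists (left) and lists of 7405 sites each (right). The Rb-deficient-only class lies at 31.0% and 4.35% with full lists and at 15.0% and 4.35% at equal length.

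By gene, 610 of the 1830 Rb-deficient-only genes, 33.3%, had a promoter site in Rb-deficient villus and 81, 4.43%, in control villus. Counts by gene use the full villus lists, of 14843 and 7405 sites, and were not made at equal length. Among the 36 segregation and division genes of this class the counts were 21 and 3, and among the 16 repair genes 12 and 1. The 12 regulators had 9 and 1, and the 13 synthesis genes 9 and 2. The 11 genes of growth, splicing and translation had 6 and 2, and the 3 of intestinal cell identity 0 and 0. Cenpe scored 50.19 and Kif20a 43.18 in Rb-deficient villus, and neither had a site in control villus. At Tra2b, in contrast, control crypt alone of the E2f3 libraries had no promoter site, with 31 in Rb-deficient and 37.48 in control villus.

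Paired sites inside and outside promoters also differed in where they stood in their own lists, by the share of the list with a higher score. Of 2724 shared promoter sites, 57.6% ranked higher in the Rb-deficient list and 41.2% lower, and of 16309 other shared sites 32.5% ranked higher and 67.4% lower. The scores of paired sites had a Spearman rho of 0.742 over the promoter pairs and 0.773 over the others, given as a description across sites of the same pair of libraries.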

How the data were processed

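Each of the 8 libraries has 1 deposited list of 1-bp positions with a score from 2 to 999, the unit the authors deposited, whose meaning is not stated. The tools named in the submitters' processing notes are Bowtie2 2.2.1 and MACS2 2.0.10, with the build mm9. Per the file names, events were called by GEM on merged data with duplicates kept, and overlap MACS2 peaks. Thresholds, normalization and read numbers are not given there, so the depth is unknown.

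Deposited positions count from 0, since 77.0% and 81.1% of sites with an E2F motif lay at its centre after adding 1, so 1 was added. Genes came from GENCODE M1 on NCBIM37, the assembly of mm9 (22232 protein-coding genes, 45974 start sites). Sharing, promoter, motif and gene counts were computed in Python 3.11.15 with NumPy 2.4.6 and SciPy 1.17.1, and the counting steps were tested on simulated lists. No group was tested against another.

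The members and the 30 gene lists were chosen with earlier results of these data known. Alternatives tried were the sharing distance, equal list length, minimum scores, promoter and motif windows. Joining the lists into 6 blocks and the ranks of genes bound in both and of paired sites were added after seeing the data. Named from each list were its genes bound in 1 library only, or the 4 highest-scored where there were more, and the 2 best of those bound in both. Over all genes, the 10 highest-scored on each side without a site of the other library within 5 kb were named, and Rb1, E2f3 and Myc. A few genes that this rule selects are not reported here.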

Additional observations from a re-analysis of the deposited data

Results flagged for a closer look

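The number of E2f3 sites went in opposite directions in the tissues. Rb-deficient minus control was -5270 sites in crypt and 7438 sites in villus, with 1 library per group, and this difference was not tested.

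At 5 named genes the library with a promoter site also switched between the tissues, which was not tested. Fuca1 was listed in control crypt only (66.1) and in Rb-deficient villus only (4.45), Mgat3 likewise (30.42 and 11.14), Rrm2b likewise (3.56 and 3.28) and Ndc80 likewise (5.27 and 8.49). Cdc26 was listed in Rb-deficient crypt only (21.69) and in control villus only (2.98).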

How the results depend on the processing

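No paired analysis was possible because each group had 1 library, and for the same reason no replicate was left out. Of 125 values recomputed for the main comparisons 55 stayed within their interval (shares) or 1.5 times (counts), and the 70 that did not are given here. The cause was not tested beyond what each setting itself changes. For the gene lists and the joined blocks, 390 recomputed counts stayed within 1.5 times and 42 did not. These 42 are not listed here.

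Sites shared within 50 bp were 66.5% of the Rb-deficient and 55.8% of the control list. Within 100 bp the Rb-deficient share was 68.8%, within 500 bp 70.3% and within 1000 bp 71.4%, with 59.4% of the control list at 1000 bp. Equal list length gave 65.4% and 65.1%, promoter shares of 13.7% (shared) and 5.05% (control only), and a motif share of 2.42% for all control-only sites.

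With scores of at least 5, 74.1% of the Rb-deficient and 61.2% of the control list were shared, 13.7% of shared sites were at promoters, and the motif lay at 44.7% of shared promoter sites, 11.7% of Rb-deficient-only sites and 26.7% of Rb-deficient-only promoter sites. With scores of at least 10, sharing was 77.9% and 62.8%, the promoter share of Rb-deficient-only sites 31.9%, and the motif share 10.3% of shared, 49.1% of shared promoter, 16.0% of Rb-deficient-only, 33.7% of Rb-deficient-only promoter and 31.0% of control-only promoter sites. Genes then numbered 1575 in both, 939 in Rb-deficient crypt only and 347 in control crypt only. With scores of at least 20, sharing was 79.6% and 63.8%, the promoter share 17.8% of shared, 40.4% of Rb-deficient-only and 5.91% of control-only sites, and the motif share 13.7% of shared, 56.6% of shared promoter, 24.3% of Rb-deficient-only and 40.3% of Rb-deficient-only promoter sites. Genes numbered 1027, 594 and 182.

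Promoter windows of 500 bp gave promoter shares of 11.9% (shared), 23.4% (Rb-deficient only) and 3.69% (control only), and of 2000 bp 17.1%, 30.8% and 8.25%. Windows of 5000 bp gave 4512 genes in both and 1254 in control crypt only.

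Motif windows of 25 bp gave 8.80% of shared, 39.9% of shared promoter, 8.06% of Rb-deficient-only and 17.7% of Rb-deficient-only promoter sites. Windows of 100 bp gave 10.2%, 46.4%, 11.01% and 26.2%, with 3.23% of control-only sites. Windows of 250 bp gave 12.5%, 54.3%, 15.0% and 36.1%, with 4.76% of control-only and 32.3% of control-only promoter sites. The motif was more frequent at control-only than at Rb-deficient-only promoter sites with 50 bp and 25 bp windows over full lists, and less frequent in the other settings run.

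Villus sites within 500 bp were found at 35.7% (Rb-deficient villus) and 6.78% (control villus) of Rb-deficient-only promoter sites and, in Rb-deficient villus, at 18.8% of control-only ones. Equal villus lists gave 15.0% and 4.83% in Rb-deficient villus for Rb-deficient-only and control-only promoter sites, and equal crypt lists 20.7% and 9.11% of control-only promoter sites in Rb-deficient and control villus. Of the 30 gene lists, the Rb-deficient library bound the larger number of members in 23, with 5 equal and 2 larger in control. At equal list length these were 24, 6 and 0. Over all genes the Rb-deficient library also bound more, 20.2% against 14.6%, and 20.2% against 12.5% at equal length. Equal length removed control sites only, so it could not move these counts towards the control side. The depth behind each list is unknown.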
